A study of Mus musculus with 49 samples.

Results

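The genes described here are the mouse glycosyltransferases that start, extend, branch and cap mucin-type O-glycans and related sugar chains, measured by RNA sequencing in crypt cells of the small intestine. They were chosen by symbol from a table of read counts with 24062 gene symbols: every gene whose symbol begins with Galnt, C1galt1, Gcnt, B3gnt, B4galt, B3galt, Fut, St3gal or St6gal (St6galnac included) and that had 10 or more counts in at least 2 of the 25 libraries. In all 70 symbols had such a beginning, 58 met the count minimum, and all 58 were tested. The other 12 (B3galt1, Fut4-ps1, Fut9, Galnt14, Galnt15, Galnt16, Galnt18, Galnt9, Galntl5, St6gal2, St6galnac3 and St6galnac5) fell below it. By role, the 58 genes were 12 GalNAc transferases, 2 genes of the core 1 step, 5 core 2 and branching GlcNAc transferases, 10 beta-1,3-GlcNAc transferases, 7 beta-1,4-galactosyltransferases, 4 beta-1,3-galactosyltransferases, 7 fucosyltransferases, 6 alpha-2,3-sialyltransferases, 1 alpha-2,6-sialyltransferase that acts on galactose and 4 that act on GalNAc. B3gnt1, whose identity is uncertain, is counted with the beta-1,3-GlcNAc transferases by its symbol alone.

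Mucins carry dense O-linked sugar chains that are built in the Golgi apparatus 1 sugar at a time. GalNAc transferases (Galnt) place the first sugar on serine or threonine, C1galt1 with its chaperone C1galt1c1 (Cosmc) adds galactose to make core 1, and Gcnt enzymes add branches. B3gnt and B4galt enzymes lengthen the chains, and fucosyltransferases (Fut) and sialyltransferases (St3gal, St6gal, St6galnac) cap them. In the intestine goblet cells secrete the gel-forming mucin Muc2, which is decorated in this way, and the lectin UEA, used in part of the sorts here, binds the alpha-1,2-linked fucose that Fut1 and Fut2 add.

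The mice were of a mixed B6;129 background and the crypts came from the proximal part of the small intestine, per the labels. Goblet cells (2 libraries) were wild-type cells sorted as CD274+CD69+ 115 h after the gamma-secretase inhibitor DBZ, which blocks Notch signalling, was given at 48 mg/kg at 0 and 12 h. Paneth cells (2 libraries) were wild-type cells sorted as CD24-high and UEA-high, and enteroendocrine cells (2 libraries) were wild-type cells sorted as CD24-high and UEA-negative. Bmi1-GFP cells came from Bmi-1GFP/+ reporter mice, with 1 library taken 36 h after 10 Gy of radiation and 3 libraries from unirradiated mice. CD274+CD69+ DT cells (2 libraries) came from mice labelled wild type that received diphtheria toxin at 50 µg/kg, and CD274+CD69+ control cells (2 libraries) from untreated wild-type mice. DBZ secretory progenitors (2 libraries) were unsorted crypts of mice labelled Atoh1 F/F, with no Cre named, 38 h after the same DBZ doses. Rbpj secretory progenitors (2 libraries) were unsorted crypts of Rbpj F/F; Villin-CRE mice after tamoxifen (2 mg, 2 days), harvested on day 3. Enterocyte progenitors (2 libraries) were unsorted crypts of Atoh1 F/F; Villin-CRE mice 3 weeks after tamoxifen (1 mg, 5 days), so the times since deletion differed between these groups. Villin-CRE acts across the intestinal epithelium, and unsorted crypts hold every cell type that remains in them. Lgr5-GFP-DTR cells (2 libraries) were GFP+ cells of Lgr5EGFP-DTR mice, and Lgr5-GFP-Cre cells (3 libraries) were GFP-high cells of Lgr5EGFP-IRES-CRE-ERT2 mice.

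Library totals ran from 11179085 to 27371108 counts, and the 58 genes took 0.1404% to 0.5102% of them. Atoh1, the transcription factor of secretory cells that is deleted in enterocyte progenitors, had 60.9 and 125 CPM (counts relative to the scaled library size) in DBZ secretory progenitors and 24.7 and 39.4 CPM in Rbpj secretory progenitors, against 1.56 and 1.81 CPM in enterocyte progenitors. Rbpj, the DNA-binding partner of Notch, had 22.5 and 29.3 CPM in Rbpj secretory progenitors, against 44.9 and 45.4 CPM in enterocyte progenitors, and counts of the whole gene do not show whether the deleted exons were among them. The sum of 9 goblet markers was 60340 to 99018 CPM in goblet cells, 7951 to 9148 in DBZ secretory progenitors and 39.2 to 80.5 in enterocyte progenitors, the sum of 7 Paneth markers was 204225 to 344114 CPM in Paneth cells, and the sum of 7 stem markers was 5184 to 7032 CPM in Lgr5-GFP-Cre cells. Markers of other cell types were also present: goblet cells held 95817 to 104578 CPM of 9 enterocyte markers, Lgr5-GFP-DTR cells 165172 to 227493 CPM of Paneth markers against 40188 to 56204 in Lgr5-GFP-Cre cells, and Bmi1-GFP cells 881 to 2167 CPM of 7 lymphoid markers. Both Rbpj libraries and 1 of the CD274+CD69+ control libraries (replicate 1) carry the label of another kit (TruSeq) than the rest, and the kit and the group cannot be told apart for the Rbpj libraries. The labels call replicates biological but do not name the mouse of each. The p-values therefore rest on the spread between libraries, pooled over the groups of the fit, and not on a known spread between mice.

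Adjusted p-values come from 1 edgeR quasi-likelihood fit over 24 libraries with Benjamini-Hochberg adjustment over the 14837 genes tested, and genes with a value below 0.05 were called. The log2 fold changes are from that fit, with their standard errors (SE), and every group has 2 libraries unless stated. Whether the libraries of 2 compared groups overlapped is given as a description. The share of all genes without overlap was not counted for such pairs of groups, so it adds no support to a call. In RNA from many cells at once, a group with fewer cells of a type and a group with less RNA per cell cannot be told apart. Counts were not divided by transcript length, so levels are compared between groups and not between genes.

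Most of the 58 genes varied among the 11 groups with replicates: 53 of 58 were called for any difference, and so were 90.6% of all genes tested, so the share in itself was near the background. Gcnt7, B3gnt8, Fut10, B3gnt6 and B3gnt4 were not called. Goblet cells had the highest mean level of 20 of the 58 genes (34.5%, against 20.9% of all genes), among them Fut2, Fut4, Galnt5, Gcnt3, B4galt1, B4galt5, B4galt6, B3gnt7 and St3gal6. Lgr5-GFP-DTR cells had the highest mean of 8 (13.8%, against 12.8% of all genes), and Paneth, enteroendocrine, Bmi1-GFP and Lgr5-GFP-Cre cells of 5 each (8.62%). The share of all genes was 3.84% in Paneth cells, 14.8% in enteroendocrine cells, 6.19% in Bmi1-GFP cells and 13.6% in Lgr5-GFP-Cre cells. The heatmap of all 58 genes shows the goblet block of high values beside genes with their highest mean in another of the 11 groups. Such genes were Fut1 and Galnt7 in Paneth cells, Galnt13 and Fut7 in Bmi1-GFP cells, and B3galt5 and Galnt2 in DT cells. Others were Galnt10 in CD274+CD69+ control cells, Gcnt1 and St6galnac6 in enterocyte progenitors, and B3galt6 and B4galt7 in Lgr5-GFP-Cre cells.

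**Figure D1:**
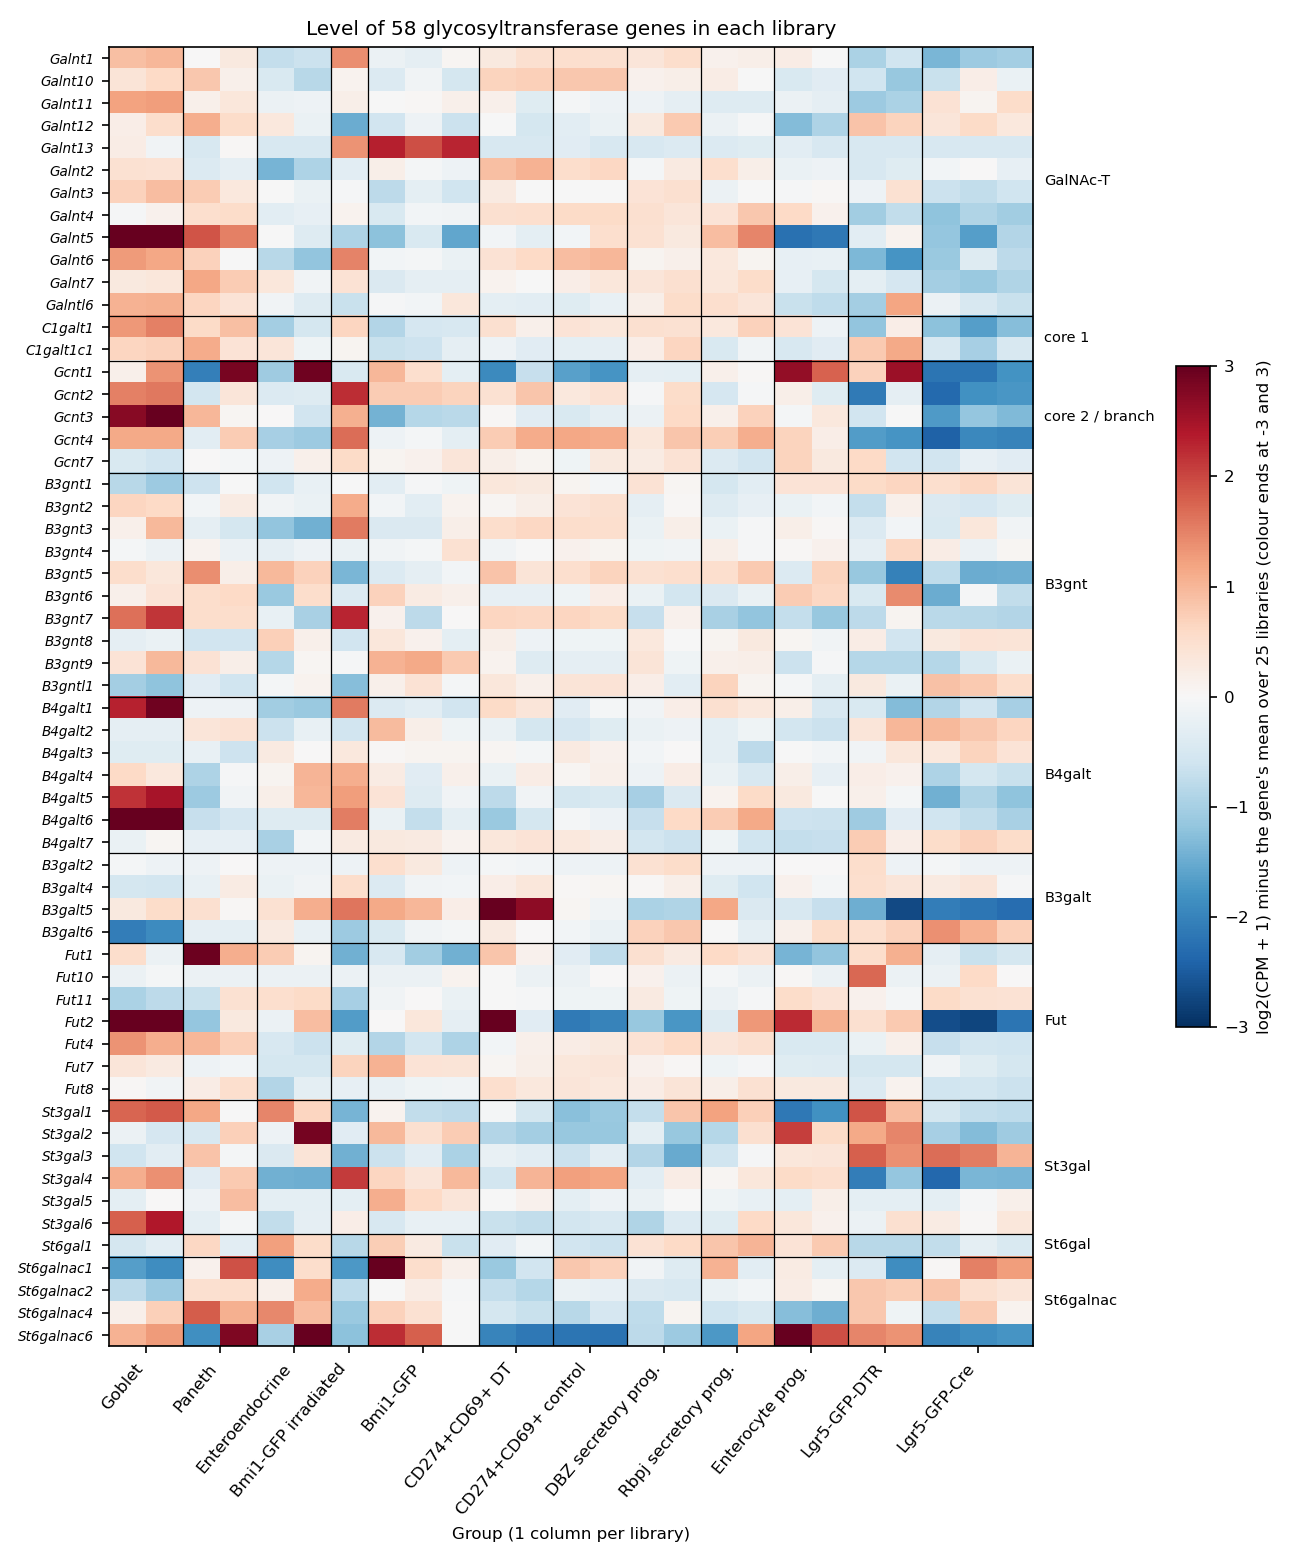
Levels of the 58 genes (rows, grouped by role) in 25 libraries (columns, grouped by cell group), as log2(CPM + 1) minus the mean of each gene over the libraries. The 2 goblet libraries at the left are above the gene's mean for most of the branching, galactosyl and fucosyl transferases named in the text and below it for B3galt6, B3gnt1, B3gntl1 and Fut11.

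Secretory progenitors were set against enterocyte progenitors to ask which of these genes differ between crypts steered towards the secretory fate and crypts in which Atoh1 was deleted. In DBZ secretory progenitors 6 of 58 genes were higher and 2 lower (2.46% of all genes were called, 1.89% higher and 0.573% lower). The GalNAc transferases Galnt5, Galnt12 and Galnt7, the fucosyltransferases Fut1 and Fut4 and the core 1 sialyltransferase St3gal1 were higher, and Fut2 and St3gal3 were lower. Galnt5 had 6.997 and 6.13 CPM in DBZ secretory progenitors, against 0.241 and 0.318 CPM in enterocyte progenitors (log2 fold change 4.51, SE 0.56, adjusted p = 5.72e-05). Galnt12 had 94.2 and 132 CPM, against 30.4 and 39.7 CPM in enterocyte progenitors (log2 fold change 1.69, SE 0.26, adjusted p = 0.000519). These were the calls kept under every alternative setting, and in each the libraries of the groups did not overlap. Galnt7, which adds GalNAc to peptides that already carry one, had 139 and 149.7 CPM in DBZ secretory progenitors, against 90.03 and 73.8 CPM in enterocyte progenitors (log2 fold change 0.82, SE 0.18, adjusted p = 0.0145). Fut4, which makes the Lewis X type of fucosylated chain, had 37.6 and 41.7 CPM, against 19.8 and 19.8 CPM in enterocyte progenitors (log2 fold change 1.00, SE 0.19, adjusted p = 0.00412). St3gal1, which adds sialic acid to core 1, had 2.97 and 10.8 CPM, against 0.481 and 0.858 CPM in enterocyte progenitors (log2 fold change 3.33, SE 0.63, adjusted p = 0.00424). For these 3 genes too, both DBZ libraries lay above both enterocyte progenitor libraries, and the DBZ libraries differed from each other most for St3gal1. Their calls were lost without DBZ replicate 2 (adjusted p = 0.142 for Galnt7, 0.0583 for Fut4 and 0.14 for St3gal1), without an enterocyte progenitor library (replicate 2 for Galnt7, replicate 1 for Fut4 and St3gal1, adjusted p = 0.162, 0.063 and 0.112) and when the compared groups were fitted alone (0.0928, 0.051 and 0.0845).

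Markers of other cell types moved with this comparison. The 7 Paneth markers, all detected, summed to 18657 and 4718 CPM in DBZ secretory progenitors, against 55.8 and 125 CPM in enterocyte progenitors, and the 5 tuft markers, all detected, to 87.3 and 81.9 CPM, against 989.8 and 486 CPM in enterocyte progenitors. The DBZ libraries also differed from each other, with the 7 stem markers at 1471 and 242 CPM and the 9 enterocyte markers at 3457 and 17641 CPM in replicates 1 and 2, against 1709 and 2079 CPM and 8423 and 5536 CPM in enterocyte progenitors. The part of these cell types in the differences was not tested.

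The alpha-1,2-fucosyltransferases Fut1 and Fut2, neighbours on chromosome 7 (45617606 to 45621059 and 45648591 to 45666394 in GRCm38.p6), went in opposite directions in this comparison. Fut1 had 2.77 and 2.27 CPM in DBZ secretory progenitors, against 0.0401 and 0.191 CPM in enterocyte progenitors (log2 fold change 4.32, SE 1.06, adjusted p = 0.0339); the enterocyte progenitor libraries held 7 Fut1 counts in all. Fut2 had 2.06 and 1.02 CPM in DBZ secretory progenitors, against 31.2 and 13.2 CPM in enterocyte progenitors (log2 fold change -3.83, SE 0.96, adjusted p = 0.038). St3gal3, which sialylates lactosamine ends, had 5.44 and 3.13 CPM, against 13.9 and 14.2 CPM in enterocyte progenitors (log2 fold change -1.71, SE 0.39, adjusted p = 0.0202). The groups did not overlap for any of these 3 genes, but the calls of Fut1 and Fut2 were lost on leaving out any of the 4 libraries (adjusted p up to 0.373 and 0.39), and that of St3gal3 on leaving out any but DBZ replicate 1 (up to 0.325). Over all members, the count of 8 called fell to 2 without DBZ replicate 2, to 3 without enterocyte progenitor replicate 1 and to 4 without enterocyte progenitor replicate 2. The median over the 58 genes was 0.14 on the log2 scale, against -0.01 over all genes.

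Rbpj secretory progenitors were set against the same enterocyte progenitor libraries, so the 2 comparisons are not independent and their values are given side by side. Here 9 of 58 genes were higher and 2 lower (28.2% of all genes were called, 15.1% higher and 13% lower), so the share higher (15.5%) was near the background. The 7 Paneth markers summed to 10331 and 10281 CPM in Rbpj secretory progenitors, against 55.8 and 125 CPM in enterocyte progenitors. The 5 tuft markers summed to 35.9 and 333 CPM, against 989.8 and 486 CPM in enterocyte progenitors, and the part of these cell types was not tested. Galnt5 had 9.96 and 14.9 CPM in Rbpj secretory progenitors (log2 fold change 5.43, SE 0.57, adjusted p = 1.71e-06), St3gal1 had 14.2 and 9.84 CPM (log2 fold change 4.14, SE 0.64, adjusted p = 0.000109) and Fut4 had 35.6 and 38.7 CPM (log2 fold change 0.91, SE 0.19, adjusted p = 0.00146), against the enterocyte progenitor values above. B4galt6, a galactosyltransferase that makes lactosylceramide, had 85.9 and 112 CPM in Rbpj secretory progenitors, against 32.5 and 32.3 CPM in enterocyte progenitors (log2 fold change 1.61, SE 0.33, adjusted p = 0.00134). Galnt7 had 136 and 158 CPM in Rbpj secretory progenitors (log2 fold change 0.84, SE 0.18, adjusted p = 0.00176). These 5 calls held under every alternative, but no alternative could separate the kit of the Rbpj libraries from the group. In each of the 5 genes the groups did not overlap. The log2 fold change was 4.52 (SE 1.07, adjusted p = 0.00391) for Fut1, 1.01 (SE 0.25, adjusted p = 0.00609) for Galnt12, 2.46 (SE 0.84, adjusted p = 0.0359) for Galntl6 and 0.54 (SE 0.19, adjusted p = 0.0368) for Galnt2. The call of Fut1 ended without enterocyte progenitor replicate 1 (adjusted p = 0.0512), that of Galnt12 without that library or Rbpj replicate 2 (up to 0.0815), and those of Galntl6 and Galnt2 without any of the 4 libraries (up to 0.197 and 0.306). B3gnt1 had 11 and 12.8 CPM in Rbpj secretory progenitors, against 22.1 and 22.2 CPM in enterocyte progenitors (log2 fold change -0.89, SE 0.23, adjusted p = 0.008). Its symbol is an older name of 2 genes in RefSeq, B3gnt2 and B4gat1. B3gnt2 was counted under its own symbol, so the B3gnt1 counts may be those of B4gat1, which could not be checked. The call of B3gnt1 ended without Rbpj replicate 1 or enterocyte progenitor replicate 2. Gcnt7 was lower on 3 counts in Rbpj secretory progenitors and 60 in enterocyte progenitors (adjusted p = 0.0246), a call that ended without Rbpj replicate 2 (0.191) or either enterocyte progenitor library (0.0974 and 0.0568). Fut2, at 4.19 and 15.6 CPM, and St3gal3, at 6.79 and 10.5 CPM, were not called in this comparison (adjusted p = 0.333 and 0.183). The count of 11 fell to 6 without enterocyte progenitor replicate 1 and to 7 without replicate 2.

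**Figure D2:**
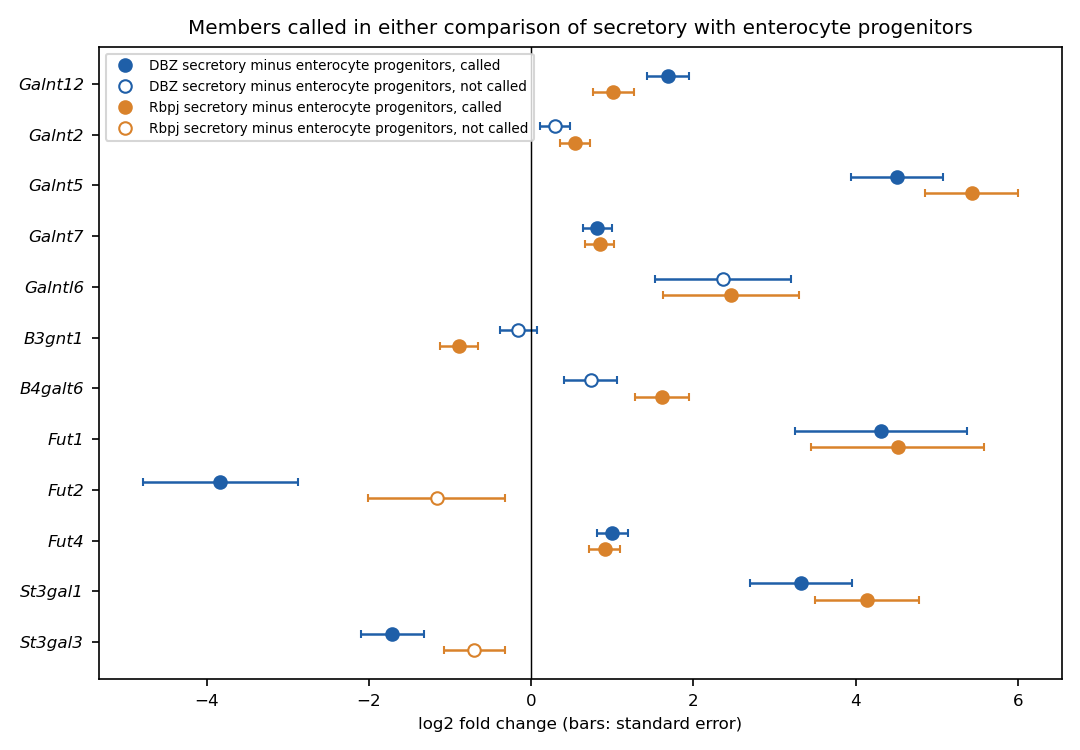
Log2 fold change (horizontal axis, bars are standard errors) of 12 genes called in DBZ or Rbpj secretory progenitors against enterocyte progenitors, filled where the gene was called and open where it was not. Galnt5, Fut1 and St3gal1 lie between 3.33 and 5.43 in the 2 comparisons, which share their enterocyte progenitor libraries, and Fut2 lies lowest at -3.83 in DBZ secretory progenitors.

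The promoters of 4 of the genes that were higher in both kinds of secretory progenitors are shown because Atoh1, which was deleted in the enterocyte progenitors, belongs to the family of factors that bind E-boxes. Each runs from 250 bases before to 50 after a transcript start in RefSeq (GRCm38.p6), 5′ to 3′ on the strand of the gene, with matches to the E-box letters CAGNTG on either strand in capitals. Galnt5 (chr2:57997905-57998204, plus strand) holds 3 matches, Fut1 (chr7:45617356-45617655, plus strand) 2, Fut4 (chr9:14752073-14752372, minus strand) 1 and Galnt7 (chr8:57653006-57653305, minus strand) 0.
Galnt5: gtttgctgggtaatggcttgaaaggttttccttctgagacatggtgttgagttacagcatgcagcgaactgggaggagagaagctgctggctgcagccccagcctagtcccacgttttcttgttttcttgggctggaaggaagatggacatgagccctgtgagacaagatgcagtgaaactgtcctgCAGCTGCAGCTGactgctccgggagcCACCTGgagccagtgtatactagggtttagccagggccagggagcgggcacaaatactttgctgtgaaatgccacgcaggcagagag
Fut1: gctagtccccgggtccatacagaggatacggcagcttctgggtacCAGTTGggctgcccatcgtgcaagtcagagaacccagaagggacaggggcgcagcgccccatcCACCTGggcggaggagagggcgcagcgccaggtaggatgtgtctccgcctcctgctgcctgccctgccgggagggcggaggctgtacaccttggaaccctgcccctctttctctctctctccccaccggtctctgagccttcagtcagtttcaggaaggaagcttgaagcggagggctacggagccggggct
Fut4: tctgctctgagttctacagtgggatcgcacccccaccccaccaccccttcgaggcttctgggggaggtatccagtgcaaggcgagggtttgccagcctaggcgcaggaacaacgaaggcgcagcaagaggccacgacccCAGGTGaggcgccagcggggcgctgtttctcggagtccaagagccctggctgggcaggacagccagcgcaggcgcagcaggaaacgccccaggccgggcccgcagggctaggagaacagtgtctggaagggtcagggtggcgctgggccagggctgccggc
Galnt7: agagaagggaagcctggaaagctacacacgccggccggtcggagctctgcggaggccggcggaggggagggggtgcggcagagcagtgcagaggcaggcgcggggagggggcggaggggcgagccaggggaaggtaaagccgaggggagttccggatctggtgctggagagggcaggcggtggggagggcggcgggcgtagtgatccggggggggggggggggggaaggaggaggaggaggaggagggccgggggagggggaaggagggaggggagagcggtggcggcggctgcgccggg
The start used for Galnt5 lies inside the annotated gene, whose first base is at 57997850, and the other 3 are at the first base of their gene. In Galnt5 a pair of the matches lie side by side. Such letters are common: 51.42% of 32851 promoters of this length hold at least 1 match, as do 30 of the 58 promoters (51.72%) found for 42 of the genes. The promoters of these genes were richer in G and C (median 59.67%, against 52.67% over all promoters). Galnt12 and St3gal1 have no entry in the table used.

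Goblet cells were compared with CD274+CD69+ control cells, sorted with the same pair of antibodies from untreated mice, to ask which of these enzymes differ between the sorts. The goblet libraries came from DBZ-treated mice and the control libraries did not, so cell type and DBZ treatment cannot be told apart. The same holds for goblet cells against Paneth and enteroendocrine cells. The goblet sort also held enterocyte markers, given below. In goblet cells 21 of 58 genes were higher and 10 lower (51.2% of all genes were called, 21.8% higher and 29.5% lower). Higher genes came from nearly every step of the pathway: 6 of 12 GalNAc transferases, both core 1 genes, 3 of 5 branching enzymes and 3 of 7 beta-1,4-galactosyltransferases. Also higher were 2 each of the 7 fucosyl-, 6 alpha-2,3-sialyl- and 4 GalNAc-directed sialyltransferases. Most of these families held lower calls too: 1 each of the GalNAc transferases, branching enzymes, beta-1,4-galactosyltransferases and fucosyltransferases. The GalNAc-directed sialyltransferases were split, with 2 higher and 2 lower. Of the 10 beta-1,3-GlcNAc transferases 1 was higher and 2 lower, and of the 4 beta-1,3-galactosyltransferases 0 were higher and 2 lower. The median over the 58 genes was 0.49 on the log2 scale, against -0.10 over all genes. With DESeq2 size factors in place of TMM scaling, the median of all genes moved from -0.10 to 0.15 and the split became 21 higher and 4 lower.

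At the first step, Galnt5 had 46 and 55.7 CPM in goblet cells, against 4.52 and 7.2 CPM in CD274+CD69+ control cells (log2 fold change 3.11, SE 0.47, adjusted p = 2.43e-05). Galnt11, which in frogs and human cells glycosylates Notch receptors, had 36.5 and 38.1 CPM, against 14.8 and 13.8 CPM in control cells (log2 fold change 1.38, SE 0.21, adjusted p = 3.2e-05). Galnt3 had 106 and 125 CPM, against 64.9 and 64.8 CPM in control cells (log2 fold change 0.83, SE 0.21, adjusted p = 0.00289). For these 3 genes the goblet libraries lay above both control libraries. Core 1 synthase C1galt1 had 73.6 and 85.9 CPM in goblet cells, against 39.3 and 37.5 CPM in control cells (log2 fold change 1.05, SE 0.33, adjusted p = 0.0125). Its chaperone C1galt1c1 had 127 and 132 CPM, against 66.5 and 67.2 CPM in control cells (log2 fold change 0.95, SE 0.25, adjusted p = 0.00429). In both genes of the core 1 step the goblet libraries lay above the control libraries. Gcnt3, the mucin-type enzyme that makes core 2 and core 4 branches, had 408 and 528 CPM in goblet cells, against 43.8 and 49 CPM in control cells (log2 fold change 3.33, SE 0.37, adjusted p = 6.84e-07). Gcnt2, which adds the I branch to long chains, had 77.9 and 81 CPM, against 33.3 and 36.3 CPM in control cells (log2 fold change 1.19, SE 0.42, adjusted p = 0.0236). Gcnt4, another core 2 enzyme, had 88.5 and 89.6 CPM in goblet cells, against 90.6 and 88.3 CPM in control cells, and was not called (log2 fold change -0.01, SE 0.28, adjusted p = 0.994).

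Of the 7 beta-1,4-galactosyltransferases, B4galt1, B4galt5 and B4galt6 were higher. B4galt6 had 587 and 467 CPM in goblet cells, against 48.4 and 45.7 CPM in CD274+CD69+ control cells (log2 fold change 3.48, SE 0.35, adjusted p = 2.87e-07). B4galt1, the general galactosyltransferase that also makes lactose in milk, had 327 and 501 CPM, against 51.4 and 62.7 CPM in control cells (log2 fold change 2.86, SE 0.28, adjusted p = 2.11e-07). B4galt5, the other lactosylceramide synthase, had 218 and 269 CPM, against 33 and 34.7 CPM in control cells (log2 fold change 2.85, SE 0.37, adjusted p = 4.58e-06). No goblet library overlapped with a control library for any of these 3 genes. B3gnt7, which extends lactosamine chains of the keratan sulfate kind, had 104 and 146 CPM in goblet cells, against 50.5 and 48.8 CPM in control cells (log2 fold change 1.33, SE 0.34, adjusted p = 0.0031). Fut2, the secretor gene, had 86.4 and 143 CPM in goblet cells, against 0.565 and 0.688 CPM in control cells (log2 fold change 7.5, SE 1.15, adjusted p = 2.81e-05), and Fut4 had 71.7 and 59.4 CPM, against 32.2 and 33.7 CPM in control cells (log2 fold change 0.99, SE 0.19, adjusted p = 0.000238). Fut1 was not called (log2 fold change 1.32, SE 0.91, adjusted p = 0.238). St3gal6, which sialylates lactosamine ends, had 183 and 280.4 CPM in goblet cells, against 34.8 and 37 CPM in control cells (log2 fold change 2.69, SE 0.31, adjusted p = 1.02e-06). St3gal1 had 21 and 22.5 CPM, against 1.75 and 2.02 CPM in control cells (log2 fold change 3.53, SE 0.61, adjusted p = 9.74e-05). St3gal4, which acts on the same kind of ends as St3gal6, had 1414 and 1723 CPM in goblet cells, against 1581 and 1529 CPM in control cells, and was not called (adjusted p = 0.99).

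The 10 genes lower in goblet cells included enzymes that act outside mucins. B3galt6, which adds the second galactose of the proteoglycan linker, had 2.13 and 2.58 CPM in goblet cells, against 11.6 and 10.6 CPM in CD274+CD69+ control cells (log2 fold change -2.24, SE 0.29, adjusted p = 4.97e-06). B3gntl1 had 2.996 and 2.5 CPM, against 9.61 and 9.67 CPM in control cells (log2 fold change -1.81, SE 0.33, adjusted p = 0.000165). B3gnt1, of uncertain identity, had 8.83 and 7.14 CPM, against 17.4 and 15.7 CPM in control cells (log2 fold change -1.05, SE 0.24, adjusted p = 0.00132). These 3 calls held with either scaling, and the groups did not overlap. The lower calls of B3galt4, B4galt3, Fut11, Galnt4, St6galnac2 and Gcnt7 were lost with DESeq2 size factors. St6galnac1, which caps the first GalNAc with sialic acid, had 2 counts in the goblet libraries (0.158 and 0 CPM), against 5.45 and 4.86 CPM in control cells (adjusted p = 0.0176), a call that ended without either goblet library (0.0617 and 0.122). The count of 31 genes fell to 17 without goblet replicate 2, to 17 without control replicate 1 and to 19 without control replicate 2, and 16 calls held under every alternative. The call of C1galt1 ended without each of these 3 libraries (adjusted p up to 0.0766), and that of Gcnt2 without any of the 4 (up to 0.121).

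Against the other groups goblet cells were higher for 19 and lower for 6 of the 58 genes (DBZ secretory progenitors, where 55% of all genes were called, 24.9% higher and 30.1% lower), higher for 17 and lower for 10 (Paneth cells, 53.8%, 23% higher and 30.8% lower) and higher for 25 and lower for 9 (enteroendocrine cells, 63%, 26.1% higher and 36.8% lower). With size factors these became 25 and 5, 22 and 6, and 27 and 6. Without goblet replicate 2 the Paneth comparison called 17 genes. The comparisons share the goblet libraries, so the values are given side by side. The log2 fold change of B4galt6 was 3.29 against DBZ secretory progenitors, 3.99 against Paneth cells and 3.77 against enteroendocrine cells, that of B4galt1 was 2.6, 2.81 and 3.76, and that of Gcnt3 was 2.68, 2.33 and 3.2. In the same order it was 6.2, 4.57 and 3.75 for Fut2, 2.81, 2.34 and 2.66 for St3gal6, 2.95, 1.5 and 3.64 for Galnt5 and -3.17, -2.06 and -2.43 for B3galt6, all of them called. The call of Galnt5 against Paneth cells ended without goblet replicate 2 (adjusted p = 0.0574) or Paneth replicate 2 (0.0689). Galnt11, B3gnt7 and B4galt5 were also called higher in all 4 goblet comparisons, and none of those calls ended under any alternative. Galnt1 and Gcnt2 were called in all 4 too, with calls that ended without any 1 library of the control comparison (adjusted p up to 0.142 and 0.121). B3gnt1 and Fut11 were lower in all 4 with TMM scaling, but with size factors B3gnt1 was not called against Paneth or enteroendocrine cells (adjusted p = 0.0702 and 0.138) nor Fut11 against control cells (0.117), and leaving out 1 library ended at least 1 call of each (adjusted p up to 0.288 and 0.543). Both goblet libraries lay above each of the other 22 libraries of the fit for 15 of the 58 genes (25.9%, against 15.6% of all genes) and below each of them for 4 (6.9%, against 21.8% of all genes), the 4 being B3galt6, B3gnt1, B3gntl1 and Fut11. The irradiated Bmi1-GFP library was not among the 22. Of the 15 genes, it was above both goblet libraries for B3gnt2 (79.7 CPM), B3gnt7 (162), Galnt1 (461), Galnt6 (559) and Gcnt2 (126). It was below both for B3gntl1 (2.34 CPM) and Fut11 (5.73).

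Enterocyte markers moved with the goblet group: the 9 markers summed to 95817 and 104578 CPM in goblet cells, against 13320 and 13430 CPM in CD274+CD69+ control cells, 3457 and 17641 CPM in DBZ secretory progenitors, 4976 and 11902 CPM in Paneth cells and 2246 and 2632 CPM in enteroendocrine cells, with all 9 detected in each of these libraries. By replicate, goblet replicate 1 held 104578 CPM of enterocyte markers beside 60340 CPM of the 9 goblet markers, and replicate 2 held 95817 beside 99018 CPM. The part of the enterocyte markers in the goblet values was not tested.

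**Figure D3:**
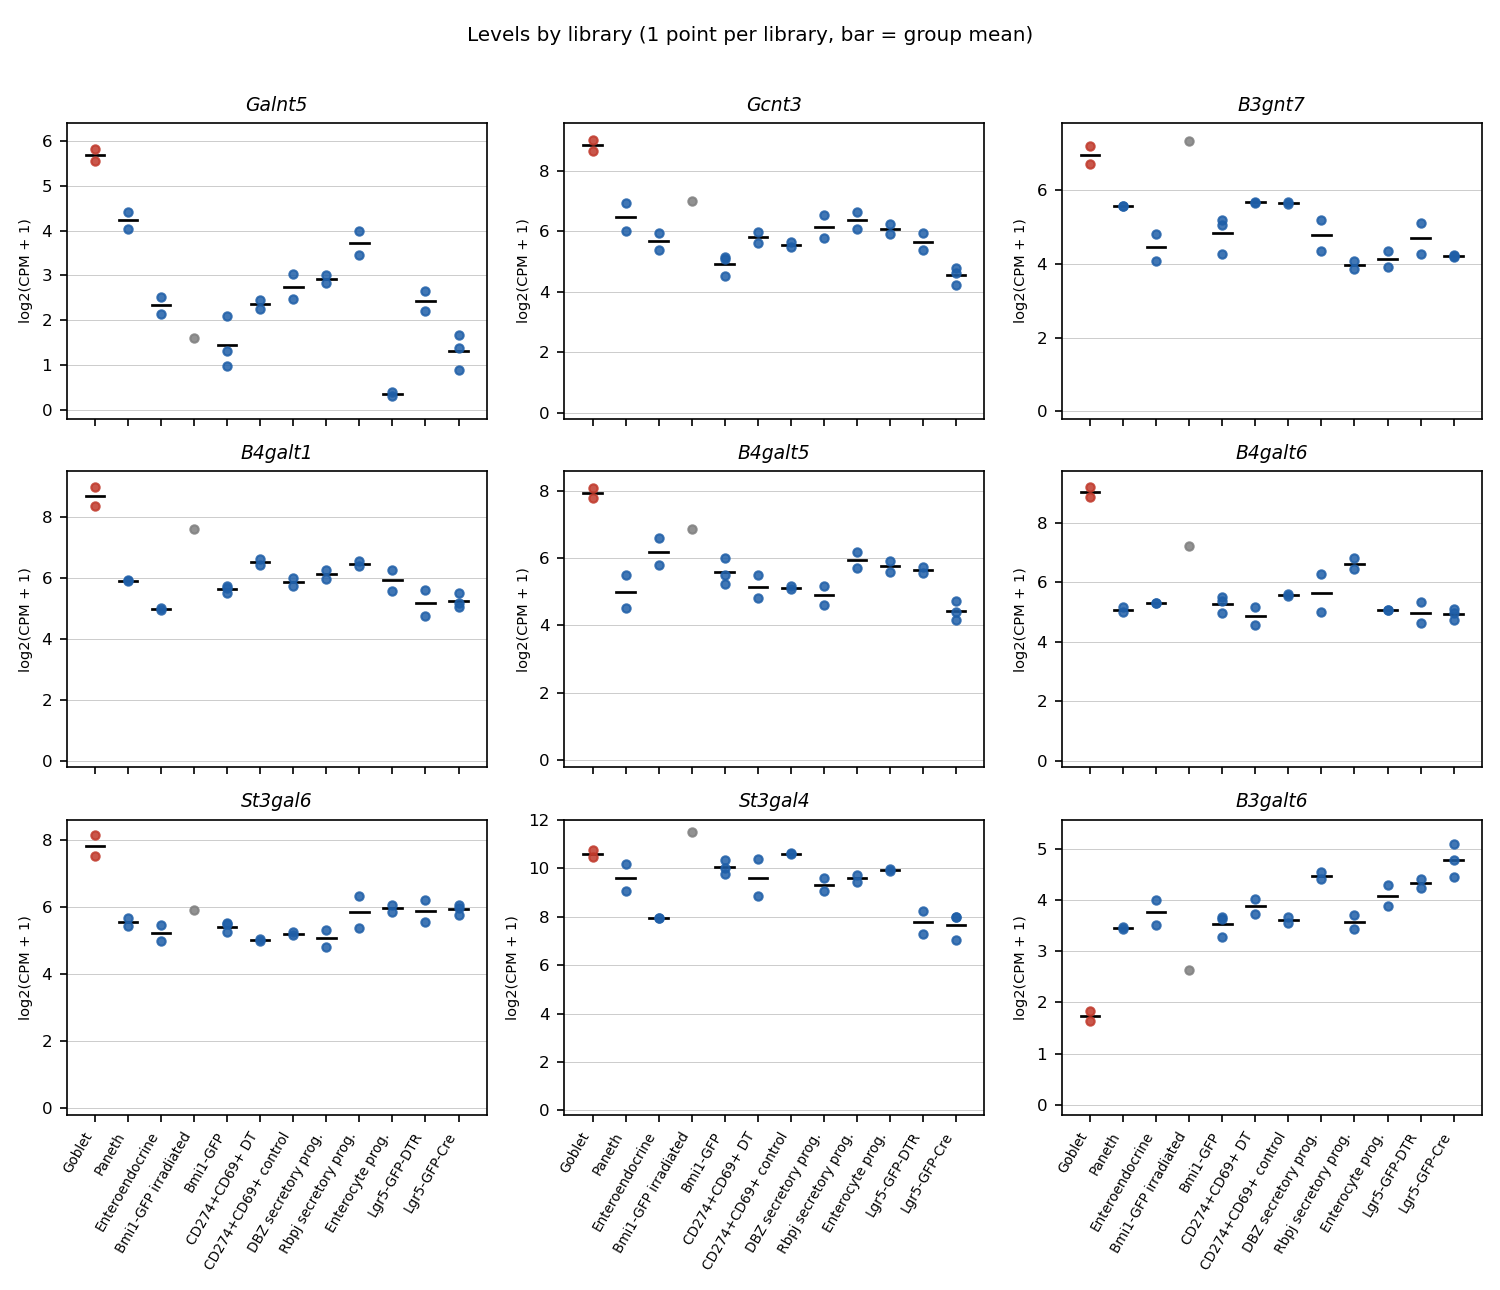
Levels of 9 genes in each library, as log2(CPM + 1), with goblet libraries in red, the single irradiated library in grey, the other libraries in blue and bars at group means. The red points lie above all blue points for Galnt5, Gcnt3, B3gnt7, B4galt1, B4galt5, B4galt6 and St3gal6 and below all of them for B3galt6, while St3gal4 overlaps with other groups.

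Paneth and enteroendocrine cells were separated by their UEA signal, so the enzymes that make the sugar UEA binds were looked at first. Fut1 had 19.8 and 4.75 CPM in Paneth cells, against 3.63 and 1.88 CPM in enteroendocrine cells, and was not called (log2 fold change 2.15, SE 0.87, adjusted p = 0.0681). Fut2 had 2.04 and 7.31 CPM in Paneth cells, against 4.98 and 11.9 CPM in enteroendocrine cells, and was not called either (log2 fold change -0.82, SE 0.88, adjusted p = 0.503). The Fut1 libraries did not overlap, with Paneth replicate 1 far above the rest, and those of Fut2 overlapped. Paneth cells were higher for 19 of the 58 genes and lower for 4 (29.4% of all genes were called, 14% higher and 15.4% lower). Of the 12 GalNAc transferases 9 were higher and 0 lower. Of the 23 calls, 3 held under every alternative. The median over the 58 genes was 0.67 on the log2 scale, against -0.03 over all genes. Markers of other cell types were present in these sorts: the 7 Paneth markers summed to 344114 and 204225 CPM in Paneth cells, against 63697 and 53271 CPM in enteroendocrine cells, and the 9 goblet markers to 25277 and 11379 CPM, against 29950.1 and 14860.2 CPM in enteroendocrine cells, where the 9 enteroendocrine markers summed to 28782 and 13864 CPM. The 5 myeloid markers summed to 107 and 49.5 CPM in Paneth cells, with 1 and 2 of them at 0, against 428 and 241 CPM in enteroendocrine cells, with 0 of them at 0. The part of these cell types in the differences was not tested.

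Fut4 had 55.3 and 45.8 CPM in Paneth cells, against 19.5 and 17.1 CPM in enteroendocrine cells (log2 fold change 1.47, SE 0.19, adjusted p = 9.57e-05). Galnt5 had 20.5 and 15.5 CPM, against 4.74 and 3.42 CPM in enteroendocrine cells (log2 fold change 2.14, SE 0.46, adjusted p = 0.00309). Galnt6, an enzyme found in many epithelial tumours, had 323 and 197 CPM, against 112 and 87.8 CPM in enteroendocrine cells (log2 fold change 1.38, SE 0.24, adjusted p = 0.000721). These 3 calls held under every alternative, and both Paneth libraries lay above both enteroendocrine libraries. Fut8, which adds core fucose to N-glycans, had 128 and 156 CPM in Paneth cells, against 59.2 and 88.2 CPM in enteroendocrine cells (log2 fold change 0.95, SE 0.19, adjusted p = 0.00221). St3gal4 had 531 and 1159 CPM, against 244 and 243 CPM in enteroendocrine cells (log2 fold change 1.8, SE 0.45, adjusted p = 0.00763). C1galt1 had 44 and 55.9 CPM, against 14.1 and 20.03 CPM in enteroendocrine cells (log2 fold change 1.55, SE 0.34, adjusted p = 0.00315). None of these 3 overlapped between the groups. B4galt5 had 21.8 and 44.4 CPM in Paneth cells, against 54 and 95.8 CPM in enteroendocrine cells (log2 fold change -1.17, SE 0.35, adjusted p = 0.0198), and B4galt4 had 14.3 and 27.3 CPM, against 29.6 and 57.6 CPM in enteroendocrine cells (log2 fold change -1.06, SE 0.32, adjusted p = 0.0209), so these galactosyltransferases were lower in Paneth cells. B3gnt8 had 0 counts in Paneth cells and 42 in enteroendocrine cells, at least 9.11-fold lower. The count of 23 fell to 13 without enteroendocrine replicate 1 and to 8 when the compared groups were fitted alone. Without enteroendocrine replicate 1 the calls of C1galt1 (adjusted p = 0.0546), Fut8 (0.0507) and St3gal4 (0.0636) ended, the last of them also without Paneth replicate 2 (0.115). Those of B4galt5 and B4galt4 ended without Paneth replicate 1 (0.181 and 0.19) or enteroendocrine replicate 2 (0.206 and 0.309).

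Across all groups the fucosyltransferases had different orders. Fut2 was highest in goblet cells (86.4 and 143 CPM), followed by CD274+CD69+ DT cells (57.2 and 4.32), enterocyte progenitors (31.2 and 13.2) and Rbpj secretory progenitors (4.19 and 15.6), groups whose libraries overlapped with each other. It was lowest in CD274+CD69+ control cells and in Lgr5-GFP-Cre cells (0.0689, 0 and 0.480 CPM in 3 libraries). Fut1 was highest in Paneth cells (19.8 and 4.75 CPM), and between 0 and 4.66 CPM in the libraries of the other groups. In goblet cells it was lower than in Paneth cells (log2 fold change -2.5, SE 0.89, adjusted p = 0.0244), a call lost without either goblet library or without Paneth replicate 1 (adjusted p up to 0.367). Fut4 was highest in goblet (71.7 and 59.4 CPM) and Paneth cells (55.3 and 45.8 CPM), which were not called against each other (adjusted p = 0.0991).

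**Figure D4:**
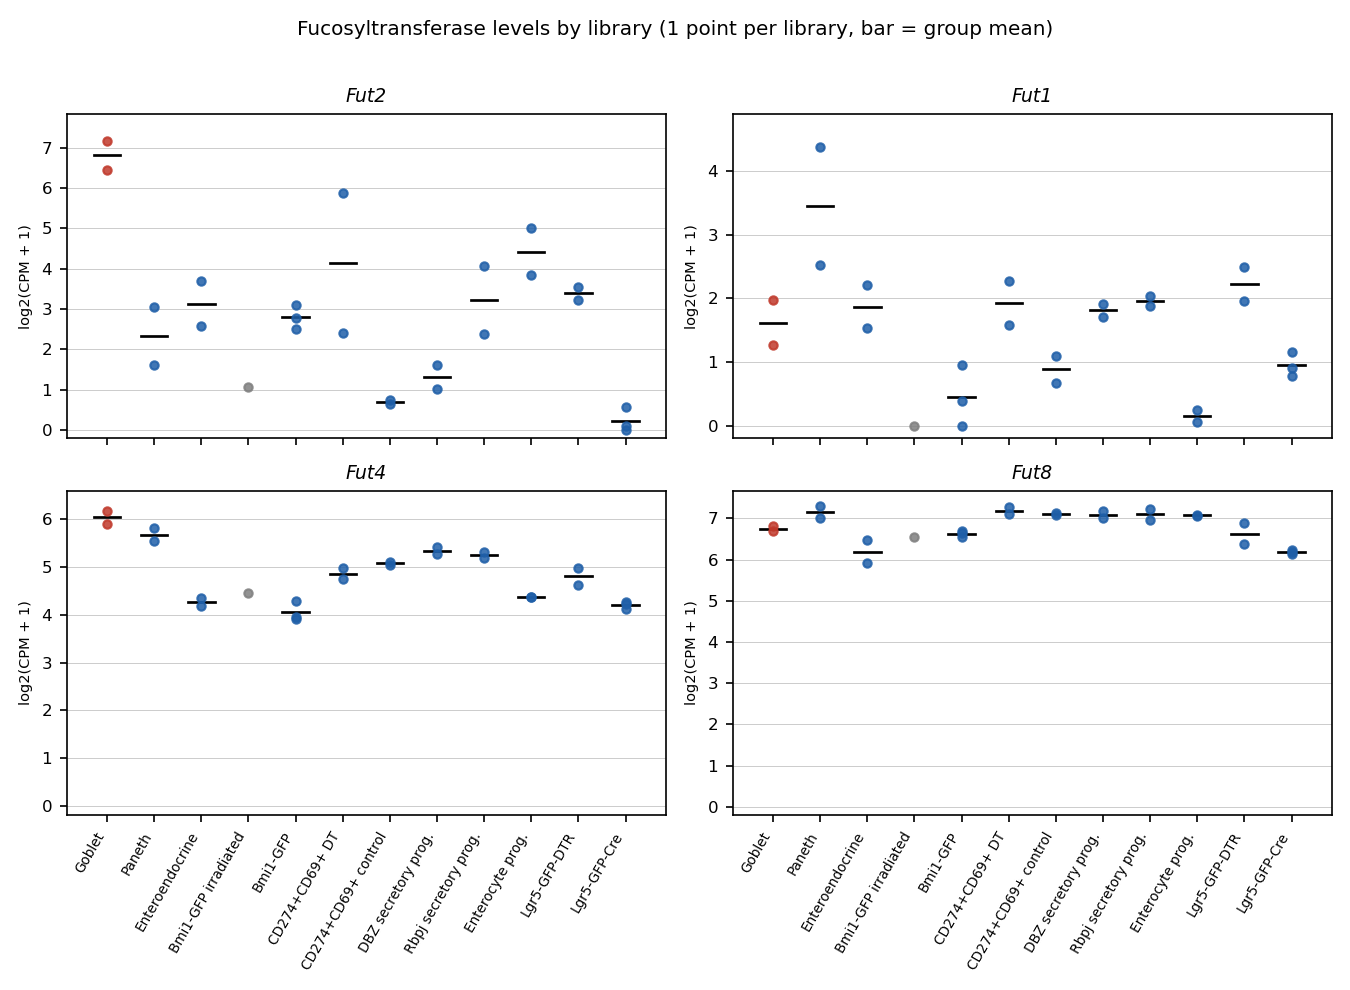
Levels of Fut2, Fut1, Fut4 and Fut8 in each library as log2(CPM + 1), with goblet libraries in red, the irradiated library in grey, the others in blue and bars at group means. Fut2 peaks in goblet cells at 86.4 and 143 CPM, Fut1 in Paneth cells at 19.8 and 4.75 CPM, and Fut8 varies less than the others.

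Other groups were set against Lgr5-GFP-Cre stem cells (3 libraries), which serve as controls in 7 comparisons, so values are given side by side. The 7 groups include unsorted crypts and another stem cell sort, the Lgr5-GFP-DTR cells, so they are not all differentiated cells. In Paneth cells 28 genes were higher and 7 lower (40.7% of all genes were called, 21.6% higher and 19.1% lower). In DBZ secretory progenitors 22 genes were higher and 7 lower (36.7% of all genes were called, 21% higher and 15.7% lower). In CD274+CD69+ control cells 22 genes were higher and 8 lower (45.3% of all genes were called, 24% higher and 21.3% lower). In Bmi1-GFP cells 21 genes were higher and 7 lower (50.4% of all genes were called, 27.9% higher and 22.5% lower). In enterocyte progenitors 20 genes were higher and 12 lower (39.4% of all genes were called, 22.2% higher and 17.2% lower). In enteroendocrine cells 19 genes were higher and 11 lower (45.9% of all genes were called, 25.5% higher and 20.4% lower). In Paneth cells the median over the 58 genes was 1.28 on the log2 scale, against 0.01 over all genes. Leaving out 1 library took the count to 19 of 29 without DBZ replicate 2, to 19 of 30 without control replicate 2, to 20 of 32 without enterocyte progenitor replicate 1 and to 17 of 30 without enteroendocrine replicate 1.

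Galnt7 stood at 52.1, 48.8 and 56.6 CPM in Lgr5-GFP-Cre cells and was called higher in each of the 7 groups set against them, with log2 fold changes of 2.00 in Paneth cells, 1.46 in DBZ secretory progenitors, 1.3 in CD274+CD69+ control cells, 1.16 in enteroendocrine cells, 0.71 in Bmi1-GFP cells, 0.64 in enterocyte progenitors and 0.63 in Lgr5-GFP-DTR cells. Its calls ended without enterocyte progenitor replicate 1 (adjusted p = 0.0991) and without Lgr5-GFP-DTR replicate 1 (0.0763). Gcnt4 stood at 6.61, 9.72 and 9.22 CPM in Lgr5-GFP-Cre cells and was higher by 3.39 in CD274+CD69+ control cells, 2.84 in DBZ secretory progenitors, 2.68 in enterocyte progenitors, 2.56 in Paneth cells, 2.06 in Bmi1-GFP cells and 1.14 in enteroendocrine cells. The branching enzyme Gcnt2, at 4.41, 6.76 and 7.16 CPM in Lgr5-GFP-Cre cells, was called in the same 6 groups with log2 fold changes of 1.68 (enteroendocrine cells) to 2.85 (Bmi1-GFP cells). In enterocyte progenitors all 5 branching enzymes were higher, with the call of Gcnt7 lost without either enterocyte progenitor library (adjusted p = 0.193 and 0.0678). St3gal4 had 129.8, 257 and 253 CPM in Lgr5-GFP-Cre cells and was higher by 2.87 in CD274+CD69+ control cells, 2.34 in Bmi1-GFP cells, 2.19 in enterocyte progenitors, 1.99 in Paneth cells and 1.62 in DBZ secretory progenitors, where the call ended without replicate 2 (adjusted p = 0.0563). In enteroendocrine cells St3gal4 was not called (log2 fold change 0.19, SE 0.40, adjusted p = 0.721), and neither was C1galt1 (log2 fold change 0.67, SE 0.30, adjusted p = 0.0782), which was higher in Paneth cells by 2.22, in DBZ secretory progenitors by 1.93 and in enterocyte progenitors by 1.61.

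Other genes were lower than in stem cells. St3gal3 had 36.6, 33.4 and 22.9 CPM in Lgr5-GFP-Cre cells, with log2 fold changes of -2.85 in DBZ secretory progenitors, -2.19 in Bmi1-GFP cells, -2.03 in CD274+CD69+ control cells, -1.46 in enteroendocrine cells, -1.13 in enterocyte progenitors and -1.01 in Paneth cells, all called. The calls ended without either enterocyte progenitor library (adjusted p up to 0.106), without enteroendocrine replicate 1 (0.0654), without Paneth replicate 2 (0.315) and, in Paneth cells and enterocyte progenitors, without Lgr5-GFP-Cre replicate 1 (0.0893 and 0.0527). B3galt6, at 33.1, 26.4 and 20.8 CPM in Lgr5-GFP-Cre cells, was called in the same groups except DBZ secretory progenitors, with -1.44 in Paneth cells to -0.73 in enterocyte progenitors, the last of them lost without enterocyte progenitor replicate 1 (adjusted p = 0.22). B4galt7, which adds the first galactose of the proteoglycan linker, was lower in enterocyte progenitors (7.46 and 7.66 CPM), DBZ secretory progenitors (8.59 and 7.96 CPM), Paneth cells (10.7 and 10.7 CPM) and enteroendocrine cells (6.09 and 12.1 CPM) than in Lgr5-GFP-Cre cells (19.5, 21.6 and 19.3 CPM), with the Paneth call lost without either Paneth library (adjusted p up to 0.0625) and the enteroendocrine call without enteroendocrine replicate 1 (0.054). Enterocyte progenitors were lower for Galnt12, at 30.4 and 39.7 CPM, against 98.2, 115 and 95 CPM in Lgr5-GFP-Cre cells (log2 fold change -1.55, SE 0.24, adjusted p = 0.000104), and for Galnt5 (log2 fold change -2.44, SE 0.54, adjusted p = 0.00191).

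Between the 2 stem cell sorts, Lgr5-GFP-DTR cells were higher than Lgr5-GFP-Cre cells for 14 of the 58 genes and lower for 2 (20.5% of all genes were called, 9.49% higher and 11.1% lower). C1galt1c1 had 139.6 and 179.5 CPM in Lgr5-GFP-DTR cells, against 58.3, 40.2 and 57.4 CPM in Lgr5-GFP-Cre cells (log2 fold change 1.62, SE 0.23, adjusted p = 0.000183). Galnt11 had 6.75 and 7.52 CPM, against 21.2, 16.5 and 22.9 CPM in Lgr5-GFP-Cre cells (log2 fold change -1.5, SE 0.21, adjusted p = 0.000183). Fut2 had 8.41 and 10.7 CPM, against 0.0689, 0 and 0.480 CPM in Lgr5-GFP-Cre cells (log2 fold change 5.42, SE 1.07, adjusted p = 0.00197). The groups did not overlap for these genes. St3gal1 was higher too (log2 fold change 2.47, SE 0.51, adjusted p = 0.00281), and Galnt6 lower (log2 fold change -0.83, SE 0.22, adjusted p = 0.0129). The count of 16 fell to 7 without Lgr5-GFP-DTR replicate 2 and to 7 when the compared groups were fitted alone, where the call of Galnt11 ended (adjusted p = 0.0527). That of Galnt6 ended in those fits (adjusted p = 0.137 and 0.161) and without Lgr5-GFP-Cre replicate 2 (0.0591). Paneth markers summed to 165172 and 227493 CPM in Lgr5-GFP-DTR cells, against 40188 to 56204 CPM in Lgr5-GFP-Cre cells, and their part in these differences was not tested.

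Diphtheria toxin treatment was followed by 2 calls among the 58 genes (0.175% of all genes were called, 0.0741% higher and 0.101% lower), in CD274+CD69+ DT cells set against CD274+CD69+ control cells. B3galt5, which makes type 1 chains, had 71 and 41 CPM in DT cells, against 5.8 and 5.09 CPM in control cells (log2 fold change 3.36, SE 0.63, adjusted p = 0.0288). Fut2 had 57.2 and 4.32 CPM in DT cells, against 0.565 and 0.688 CPM in control cells (log2 fold change 5.6, SE 1.09, adjusted p = 0.0384). In both genes the libraries did not overlap, and for Fut2 DT replicate 1 was far above DT replicate 2. No member was called without DT replicate 1 or without either control library, and 1 was called without DT replicate 2 (adjusted p up to 0.548 for B3galt5 and 1 for Fut2).

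Bmi1-GFP cells (3 libraries) were set against enteroendocrine cells, and 11 of the 58 genes were higher and 5 lower (24.7% of all genes were called, 12.6% higher and 12.1% lower). Galnt13, an enzyme best known from neurons, had 6.05, 4.3 and 5.81 CPM in Bmi1-GFP cells, against 0 counts in enteroendocrine cells, at least 77.4-fold higher. It reached 10 counts in 4 libraries, all of them of Bmi1-GFP cells, and so entered the fit through the group where it is high; its place among the 11 is a description. Fut7, which makes sialyl Lewis X in leukocytes, had 1.998, 0.932 and 0.874 CPM, against 0 counts in enteroendocrine cells, at least 18.2-fold higher (adjusted p = 0.00166). St3gal4 had 1046, 866 and 1314 CPM, against 244 and 243 CPM in enteroendocrine cells (log2 fold change 2.14, SE 0.44, adjusted p = 0.00238). The calls of Fut7, St3gal4 and Galnt2 (log2 fold change 1.17, SE 0.18, adjusted p = 0.000366) held under every alternative. Galnt13 was at or under 0.631 CPM in the libraries of the other groups apart from the irradiated one. Bmi1-GFP cells held 881 to 2167 CPM of 7 lymphoid markers, against 165 and 245 CPM in enteroendocrine cells, and their part in the Fut7 level was not tested. Fut1 (log2 fold change -2.76, SE 0.84, adjusted p = 0.0231) and St3gal1 (log2 fold change -1.75, SE 0.50, adjusted p = 0.0163) were lower, calls lost without enteroendocrine replicate 1 (adjusted p = 0.178 and 0.213) or Bmi1-GFP replicate 2 (0.0776 and 0.0712) or 3 (0.0557 and 0.064). Beside them, the 7 Paneth markers summed to 9802, 10565 and 6802 CPM in Bmi1-GFP cells, against 63697 and 53271 CPM in enteroendocrine cells, and the 9 goblet markers to 3823, 4274 and 6442 CPM, against 29950.1 and 14860.2 CPM in enteroendocrine cells, and their part in the Fut1 and St3gal1 differences was not tested. The count of 16 fell to 7 without enteroendocrine replicate 1 and to 10 without Bmi1-GFP replicate 2 or 3.

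The single library of Bmi1-GFP cells 36 h after radiation has no replicate and was given no test. Of 53 genes with 1 CPM or more, 12 lay above and 11 below the range of the 3 unirradiated libraries by more than 1 on the log2 scale (43.4%, against 34.6% of all genes). Of the 53 genes 22.6% lay above and 20.8% below, against 11.7% above and 22.8% below of all genes. B3gnt7 stood at 162 CPM in the irradiated library, against 35.5, 18.3 and 32.3 CPM in unirradiated ones, Gcnt3 at 129 CPM, against 22, 33.4 and 34.3 CPM, and B4galt1 at 194 CPM, against 49.2, 52.5 and 43.6 CPM. B4galt6 stood at 149 CPM in the irradiated library, against 44.3, 30.6 and 40.9 CPM in unirradiated ones, Gcnt4 at 130.3 CPM, against 35.8, 38.6 and 32.4 CPM, and St3gal4 at 2884 CPM, against 1046, 866 and 1314 CPM. St3gal4 was higher here than in any other library. Lower were St6galnac1, at 0.111 CPM in the irradiated library, against 35.4, 4.25 and 3.06 CPM in unirradiated ones, and Fut2, at 1.11 CPM, against 5.88, 7.56 and 4.63 CPM. The enterocyte markers summed to 111185 CPM in the irradiated library, against 6000 to 17228 CPM in unirradiated ones. Goblet markers were also higher, at 14521 CPM, against 3823 to 6442 CPM. The other marker sums were lower, among them stem (65.1 CPM, against 825 to 1384), enteroendocrine (1961, against 7774 to 14659), Paneth (4018, against 6802 to 10565) and lymphoid markers (215, against 881 to 2167). The part of these cell types in the values was not tested.

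Gcnt1, the core 2 enzyme of leukocytes and other cells, the sialyltransferase St6galnac6 and the core 1 sialyltransferase St3gal2 differed widely between replicates of one group, and are given beside tuft markers. The 5 tuft markers (Dclk1, Trpm5, Pou2f3, Ptgs1 and Alox5ap) were detected in every library, and summed to 149 and 154 CPM in goblet cells, 44.4 and 831 in Paneth cells, 575 and 2788 in enteroendocrine cells, 35.9 and 333 in Rbpj secretory progenitors, 989.8 and 486 in enterocyte progenitors and 11.6, 16.4 and 14.6 in Lgr5-GFP-Cre cells. Gcnt1, in the same order, stood at 4.02 and 10.5 CPM in goblet cells, 0.102 and 31.5 in Paneth cells, 1.17 and 33.3 in enteroendocrine cells, 4.02 and 3.62 in Rbpj secretory progenitors, 27.4 and 14.4 in enterocyte progenitors and 0, 0 and 0.306 in Lgr5-GFP-Cre cells. St6galnac6 stood at 9.46 and 11.3 CPM in goblet cells, 0.409 and 34.2 in Paneth cells, 1.58 and 59.2 in enteroendocrine cells, 0.528 and 10.5 in Rbpj secretory progenitors, 47.5 and 18.4 in enterocyte progenitors and 0.276, 0.386 and 0.480 in Lgr5-GFP-Cre cells. In Paneth and enteroendocrine cells the replicate with the higher tuft sum also had the higher level of all 3 genes. In Lgr5-GFP-DTR cells, with tuft sums of 811 and 1165 CPM, Gcnt1 had 6.34 and 26.1 CPM, St6galnac6 13 and 11.9 CPM and St3gal2 5.82 and 7.63 CPM, against 0.551, 0.257 and 0.480 CPM for St3gal2 in Lgr5-GFP-Cre cells. Against Lgr5-GFP-Cre cells, Gcnt1 was called in enterocyte progenitors (log2 fold change 7.3, SE 1.61, adjusted p = 0.00175), enteroendocrine cells (log2 fold change 7.03, SE 1.6, adjusted p = 0.00174) and Paneth cells (log2 fold change 6.92, SE 1.61, adjusted p = 0.00227). Without Paneth replicate 2, which leaves 1 Gcnt1 count in Paneth cells, the Paneth call ended (adjusted p = 0.993), and without enteroendocrine replicate 2 the enteroendocrine calls of Gcnt1 and St3gal2 ended (adjusted p = 0.189 and 0.0726). St3gal2 was called in enteroendocrine cells (log2 fold change 4.76, SE 0.89, adjusted p = 0.000356) and enterocyte progenitors (log2 fold change 4.16, SE 0.88, adjusted p = 0.0013). The part of tuft cells in the levels of these 3 genes was not tested.

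**Figure D5:**
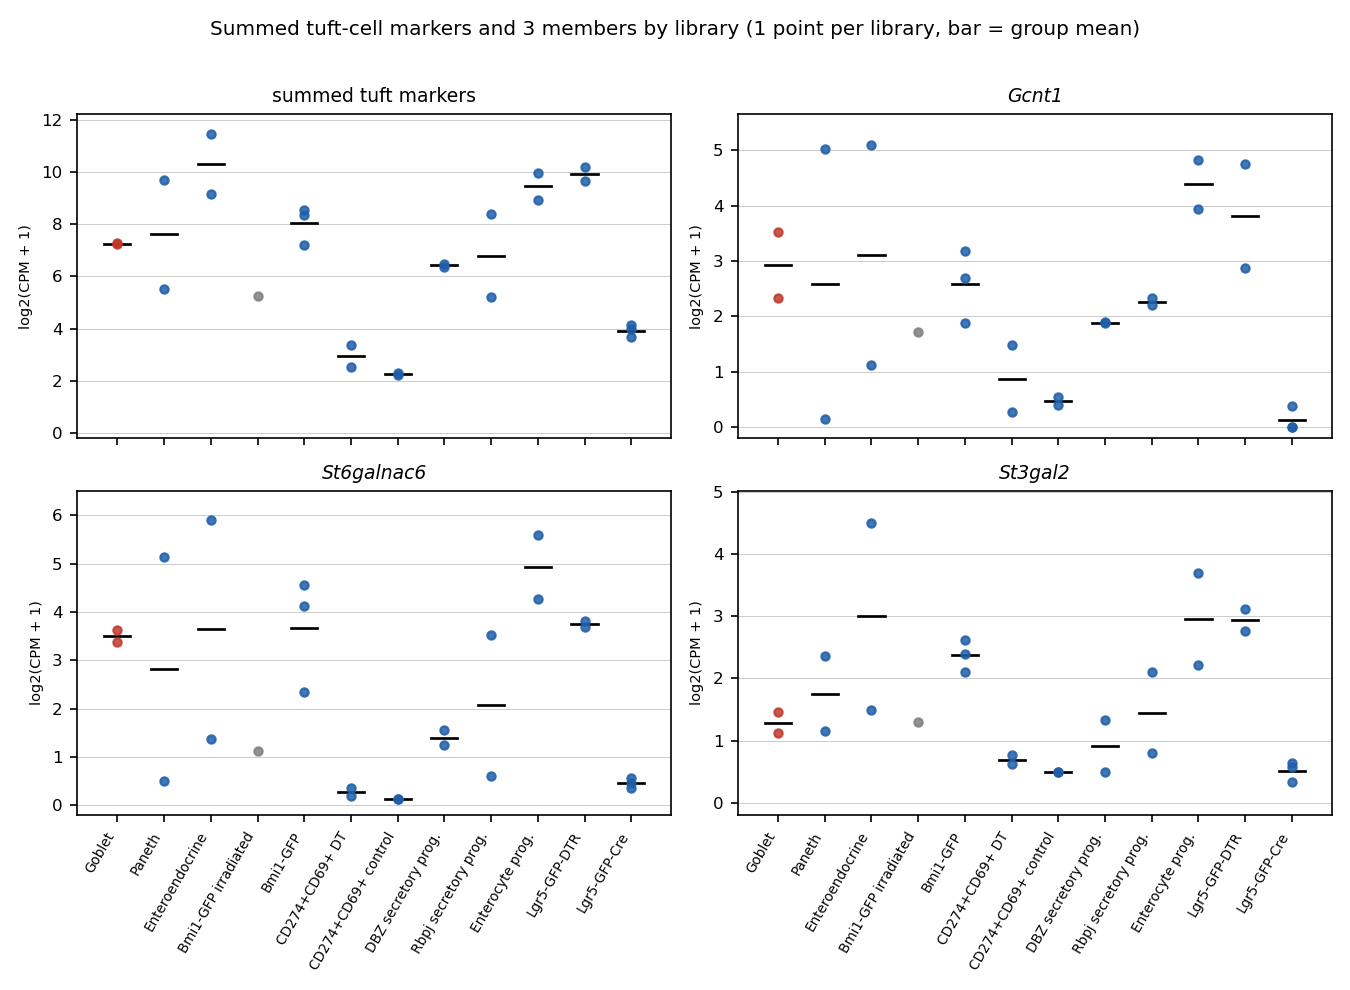
Summed level of 5 tuft markers and levels of Gcnt1, St6galnac6 and St3gal2 in each library, as log2(CPM + 1), with goblet libraries in red, the irradiated library in grey, the others in blue and bars at group means. In Paneth and enteroendocrine cells the 2 replicates lie far apart in the panels of the tuft markers, Gcnt1 and St6galnac6.

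Genes that supply or receive the sugars were counted from lists drawn up with earlier results known. Of 11 mucin and mucus protein genes tested, 7 were higher and 1 lower in goblet cells than in CD274+CD69+ control cells (against 21.8% and 29.5% of all genes), with Muc2 at 4827 and 5279 CPM in goblet cells, against 414 and 404 CPM in control cells (log2 fold change 3.63, SE 0.38, adjusted p = 4.3e-07). In DBZ secretory progenitors 5 were higher and 1 lower than in enterocyte progenitors (2.46% of all genes were called), with Muc2 at 624 and 428 CPM, against 4.65 and 9.31 CPM in enterocyte progenitors (log2 fold change 6.23, SE 0.44, adjusted p = 6.4e-08), and in Rbpj secretory progenitors 7 were higher and 1 lower (28.2% of all genes were called). Of 19 genes of further caps and sulfation tested, 6 were higher and 4 lower in goblet cells than in control cells, a share near the background of 51.2%, with the sulfotransferase Gal3st2 at 513 and 570.1 CPM in goblet cells, against 83.2 and 78.8 CPM in control cells (log2 fold change 2.74, SE 0.29, adjusted p = 5.16e-07). In DBZ secretory progenitors 2 of these 19 were higher, with Chst4 at 25.7 and 47 CPM, against 4.37 and 4.51 CPM in enterocyte progenitors (log2 fold change 3.03, SE 0.44, adjusted p = 0.000293). In Rbpj secretory progenitors 5 were higher and 5 lower than in enterocyte progenitors, against 15.1% and 13% of all genes.

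The calls among sugar donor genes in goblet cells are read against the 51.2% of all genes called (21.8% higher and 29.5% lower), and the shares of UDP-sugar and GDP-fucose genes were near it. Of 14 UDP-sugar genes, 3 were higher and 5 lower in goblet cells than in control cells, and Gfpt1, the first enzyme of UDP-GlcNAc synthesis, had 569 and 572 CPM in goblet cells, against 193 and 197 CPM in control cells (log2 fold change 1.55, SE 0.20, adjusted p = 5.19e-06). Of 5 CMP-sialic acid genes 0 were higher and 3 lower, and Gne, which starts sialic acid synthesis, had 52.1 and 45.2 CPM in goblet cells, against 95.7 and 93 CPM in control cells (log2 fold change -0.96, SE 0.19, adjusted p = 0.000375). Of 10 GDP-fucose genes 2 were higher and 3 lower, with Pmm1 at 147 and 349 CPM in goblet cells, against 8.27 and 7.61 CPM in control cells (log2 fold change 4.96, SE 0.37, adjusted p = 1.35e-08). Gne was also lower in DBZ secretory progenitors than in enterocyte progenitors (log2 fold change -0.77, SE 0.19, adjusted p = 0.0325) and higher in Paneth cells than in enteroendocrine cells (log2 fold change 1.24, SE 0.19, adjusted p = 0.000328). Of the 10 glycosidase genes 4 were higher and 2 lower in goblet cells than in control cells.

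Several members were near the count minimum in most libraries. B3galt2, Fut10, B3gnt4, B3gnt8, Gcnt7, Fut7, St3gal5, B4galt2 and B3gnt9 reached at most 3.00 CPM in any library (B3gnt9 in a Bmi1-GFP library), so changes in them rest on few counts. B3galt2 had 0 counts in both CD274+CD69+ control libraries and both Rbpj secretory progenitor libraries, and Fut10 in both Paneth and both enteroendocrine libraries.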

How the data were processed

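RNA from sorted crypt cells or whole crypts was sequenced as 75 bp single-end reads, per the labels. The deposited table holds raw read counts per gene for 25 libraries, whole numbers that the authors had not normalized. Bowtie2, TopHat2 2.0.6, DESeq2 and the build mm10 are named in the submitters' processing notes. How reads were counted, on which annotation and with which strand setting is not given in the sources used here, so overlapping genes cannot be separated. All 25 columns were mapped to samples by name, and 24 of the 49 samples of the series were not analysed here. The CD274+CD69+ control libraries were the most alike of the replicate pairs (chi-square per degree of freedom 4.23, against 27.8 to 194 in others), although their labels name different kits. They were counted as 2. Whether the kit label is right, and whether the 2 are independent samples, could not be checked.

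The model was fitted with edgeR 4.0.16 (R 4.3.3): filterByExpr (minimum count 10, total 15), TMM scaling, and 1 quasi-likelihood fit over 24 libraries of 11 groups (common dispersion 0.0714), with Benjamini-Hochberg adjustment over 14837 genes in each of 16 contrasts and a threshold of 0.05. Levels are CPM on TMM-scaled library sizes. The report gives no fold where a group had 3 counts or fewer, and bounds against 0 counts use 3 counts over the group. The irradiated library was described by log2 CPM with a prior count of 2. Sequences, names and coordinates are from RefSeq (GRCm38.p6), where 57 of 58 symbols matched. The fit was also run on counts simulated with the same dispersion (0.0714) for every gene. The spread between the real replicates was uneven, so that run does not measure how often calls here are wrong.

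Members and lists were chosen with earlier results of these data known. One marker of the tuft list is not reported here, and its counts are left out of the tuft sums. Every member could be named; in each comparison those with the greatest changes and a mean of 10 CPM or more were preferred, with Fut1 and Fut2 in the UEA sorts, and up to 3 called genes for each other list. Alternatives were DESeq2 1.42.0 size factors and test, no filter, the compared groups alone, a replicate block and leaving out each library.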

Additional observations from a re-analysis of the deposited data

How the results depend on the processing

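Of 377 calls of the 58 genes in 16 comparisons, 194 held under every alternative and 197 in every fit that left out 1 library. Leaving out 1 library gave 17 to 22 called genes for goblet against CD274+CD69+ control cells, 17 to 23 against DBZ secretory progenitors, 17 to 23 against Paneth cells and 28 to 32 against enteroendocrine cells. It gave 13 to 20 for Paneth against enteroendocrine cells, 2 to 8 for DBZ and 6 to 9 for Rbpj secretory against enterocyte progenitors, 0 to 1 for DT against control cells, 7 to 13 for Bmi1-GFP against enteroendocrine cells and 51 to 55 for any difference. Against Lgr5-GFP-Cre cells it gave 20 to 33 for enterocyte progenitors, 19 to 26 for DBZ secretory progenitors, 27 to 32 for Paneth cells, 17 to 28 for enteroendocrine cells, 22 to 26 for Bmi1-GFP cells, 19 to 28 for CD274+CD69+ control cells and 7 to 24 for Lgr5-GFP-DTR cells. Where this left 1 library in a group, it was assumed to vary like the others.

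Fitting the compared groups alone gave 8 calls for Paneth against enteroendocrine cells and 7 for Lgr5-GFP-DTR against Lgr5-GFP-Cre cells; the cause was not tested. The replicate block left 1 call for DT against control cells. Samples of different groups share only a replicate number: 32 of 111 same-numbered pairs deviated together with r over 0.1 (range -0.37 to 0.39). With the block 52 genes were called for any difference, and the other counts stayed within 1.5 times their value. The direction turned in 2 cases: Gcnt1 in Paneth against Lgr5-GFP-Cre cells without Paneth replicate 2 (-0.29, adjusted p = 0.993) and St6galnac1 in goblet against enteroendocrine cells without enteroendocrine replicate 2 (3.68, adjusted p = 0.572); the cause was not tested. Over the fits that left out 1 library these values ran from -0.29 to 11.32 and from -8.47 to 3.68, but rest on 1 Gcnt1 count in the Paneth library kept and on 2 St6galnac1 counts in goblet and 0 in the enteroendocrine library kept, so their size is no measure of a fold. Groups of 2 libraries and low counts limit what can be called for genes under a few CPM.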
